A study of Homo sapiens with 24 samples.

Results

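The replication-dependent histone genes are the subject of this account, 69 of the 20020 protein-coding genes of the GENCODE annotation. They are defined by symbol alone, as the autosomal H2AC, H2BC, H3C and H4C genes and H1-1 to H1-6, and no measured value enters the rule. They comprise 6 linker histone H1 genes, 17 H2A, 18 H2B, 13 H3 and 15 H4 genes, of which 55 lie on chromosome 6, 13 on chromosome 1 and 1 (H4C16) on chromosome 12. The promoter value of a gene was the mean normalized count of the strongest H3K4me3 region no more than 2 kb from a start site of the gene, in hg38 coordinates.

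The study profiled histone marks in EndoC-βH3, a human pancreatic beta cell line of fetal origin that divides because of 2 excisable transgenes, the telomerase subunit hTERT and the viral oncoprotein SV40 large T. H3K4me3 was measured by MINT-ChIP, in which the fragments of each sample receive a barcode and are immunoprecipitated together, in 4 non-senescent and 4 senescent samples of 500000 cells each. The non-senescent samples were control cultures that still carried the transgenes. In the senescent samples CreER had been activated with 4-hydroxytamoxifen for 3 weeks (1 mM in the sample labels, 1 μM in the study's methods), which excises the transgenes. All samples come from 1 cell line of wild-type genotype, and no label says whether the replicates were separate cultures. The value analysed for each region is the authors' mean over the 8 samples. It pools both states, so the levels below carry no replicate error and say nothing of a difference between non-senescent and senescent cells, and no difference between genes was tested.

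Replication-dependent histone genes supply the core histones H2A, H2B, H3 and H4 and the linker histone H1 that package newly copied DNA in S phase. They are short and mostly intronless, lie in clusters, and give mRNAs that end in a stem-loop in place of a poly(A) tail. NPAT, a cyclin E-CDK2 substrate, activates them in a nuclear compartment, the histone locus body. H3K4me3 marks nucleosomes around active transcription start sites, where it is a common measure of promoter state.

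Of all 97545 regions, 36 distinct ones (0.0369%) served the histone genes, and these held 0.117% of the bases covered by regions and 0.285% of the summed mean normalized counts. Depth per sample is unknown, because the values used here pool the samples. For the cell type, 10 of 11 beta cell markers had a promoter region (median 260), among them PAX6 (665), ISL1 (588) and PDX1 (260.5), while INS was at 24.7, IAPP at 6.94 and MAFA had no region in the table used here. Of 7 markers of other cell types, 6 had a region, between 1.12 (PRSS1) and 24.1 (KRT19), and PTPRC had none.

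The promoter sequences below carry the elements that set the histone types apart, and they span genes with strong, weak and no H3K4me3. They are RefSeq windows (GRCh38.p14) from 250 bases before to 50 bases after the start site, 5′ to 3′ on the strand of the gene. Capitals mark, on either strand, the TATA box (TATAAA), the CCAAT box (CCAAT), the octamer bound by OCT1 (ATTTGCAT), E2F words (TTTGGCGC, TTTCCCGC or TTTGGCGG), the core of the H4 element (GGTCCG) and the AC box of H1 genes (AAACACA). Matches can overlap, as a CCAAT box and a GGTCCG do in H2AC20. H2AC20 (chr1:149886668-149886967, plus strand) has the strongest region, and its window holds the whole 236 bases between its start and that of the divergent H2BC21. H4C8 (chr6:26285485-26285784, minus strand) and H1-2 (chr6:26056421-26056720, minus strand) have strong promoters of their own. H4C9 (chr6:27139032-27139331, plus strand) is weak, and H4C7 (chr6:26246947-26247246, minus strand), H2AC1 (chr6:25726513-25726812, minus strand) and H1-6 (chr6:26108086-26108385, minus strand) have no region.
H2AC20: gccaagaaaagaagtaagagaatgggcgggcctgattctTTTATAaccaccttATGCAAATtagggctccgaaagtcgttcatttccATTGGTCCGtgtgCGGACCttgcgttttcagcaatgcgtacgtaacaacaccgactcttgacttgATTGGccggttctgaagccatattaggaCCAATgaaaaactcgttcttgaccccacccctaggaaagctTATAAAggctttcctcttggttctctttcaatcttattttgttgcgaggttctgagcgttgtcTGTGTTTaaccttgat
H4C8: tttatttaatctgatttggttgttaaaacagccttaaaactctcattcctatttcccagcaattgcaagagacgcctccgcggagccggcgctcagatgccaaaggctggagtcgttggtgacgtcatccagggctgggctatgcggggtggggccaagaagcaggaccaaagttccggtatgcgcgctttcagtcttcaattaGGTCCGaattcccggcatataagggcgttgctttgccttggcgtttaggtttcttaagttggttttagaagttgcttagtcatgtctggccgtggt
H1-2: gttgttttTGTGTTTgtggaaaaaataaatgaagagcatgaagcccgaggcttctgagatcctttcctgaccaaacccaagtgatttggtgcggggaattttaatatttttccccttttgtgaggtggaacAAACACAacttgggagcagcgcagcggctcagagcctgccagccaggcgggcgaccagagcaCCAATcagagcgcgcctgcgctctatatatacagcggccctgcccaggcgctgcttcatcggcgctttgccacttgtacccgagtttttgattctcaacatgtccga
H4C9: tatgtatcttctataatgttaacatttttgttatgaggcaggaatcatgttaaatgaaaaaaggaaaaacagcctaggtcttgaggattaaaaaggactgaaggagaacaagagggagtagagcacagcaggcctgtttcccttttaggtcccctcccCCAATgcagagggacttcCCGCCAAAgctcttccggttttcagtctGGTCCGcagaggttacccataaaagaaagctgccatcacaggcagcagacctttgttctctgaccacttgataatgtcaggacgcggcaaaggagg
H4C7: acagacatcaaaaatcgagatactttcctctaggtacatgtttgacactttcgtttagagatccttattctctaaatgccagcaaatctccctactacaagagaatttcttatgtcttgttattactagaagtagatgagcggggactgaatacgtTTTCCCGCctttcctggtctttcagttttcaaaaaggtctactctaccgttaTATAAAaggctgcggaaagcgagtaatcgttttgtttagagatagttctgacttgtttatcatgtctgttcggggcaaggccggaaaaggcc
H2AC1: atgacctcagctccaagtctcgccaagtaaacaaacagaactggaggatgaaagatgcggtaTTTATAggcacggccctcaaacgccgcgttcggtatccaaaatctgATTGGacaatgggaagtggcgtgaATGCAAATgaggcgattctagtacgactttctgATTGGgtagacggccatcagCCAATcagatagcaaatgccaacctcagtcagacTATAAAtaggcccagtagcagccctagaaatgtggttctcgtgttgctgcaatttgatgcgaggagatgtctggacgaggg
H1-6: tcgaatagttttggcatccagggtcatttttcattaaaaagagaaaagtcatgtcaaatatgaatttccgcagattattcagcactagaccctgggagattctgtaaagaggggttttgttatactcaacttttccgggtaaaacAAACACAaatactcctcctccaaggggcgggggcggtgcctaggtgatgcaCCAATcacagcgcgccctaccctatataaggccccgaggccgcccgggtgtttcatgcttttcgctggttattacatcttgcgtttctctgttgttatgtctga

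Several of the elements were unevenly spread over the histone types. RefSeq windows were matched for 64 of the 69 genes (not for H2AC12, H3C11, H3C12, H4C1 and H4C3), all of them placed at the main start of the gene. A CCAAT box was found in every matched H1, H2A, H2B and H3 window (6, 16, 18 and 11 genes) but in only 3 of 13 H4 windows, against 36.6% of 15345 protein-coding promoter windows. GGTCCG was found in 12 of 13 H4 windows (92.3%), where its first base lay between -47 and -44 from the start in all 12, and in 15.1% of all windows. H4C7 was the H4 gene without it. The AC box word was present in all 6 H1 windows and in 3.98% of all windows. In 5 of the 6, including H1-6, it read in the direction of the gene, while H1-1 held it only on the opposite strand, at -183. It was also found on the opposite strand in H2AC20, H3C14 and H3C15, downstream of the start. The octamer was found in 14 of 18 H2B and 11 of 16 H2A windows, and in no H1, H3 or H4 window, against 1.69% of all windows. In H2B windows 13 of the 14 octamers read in the direction of the gene, with a median first base at -49, whereas 1 of the 11 in H2A windows did. The windows of a divergent pair overlap, and these 25 matches were 17 sites in the genome, of which 8 were seen from both an H2A and an H2B gene. CCAAT and TATAAA sites were shared in the same way (37 of 109 and 13 of 48 sites). TATAAA was found in 42 of 64 histone windows (65.6%) against 9.41% of all windows, and in the sense direction its median first base was at -31. Among the histone windows, an E2F word was found only in H4C7 and H4C9 (3.13% of the histone windows, 3.99% of all). The histone windows were poorer in G and C than other promoters, with a median GC content of 43.7% against 63.7% and 12 against 23 CpG dinucleotides. These CpG counts were not corrected for GC content.

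**Figure D1:**
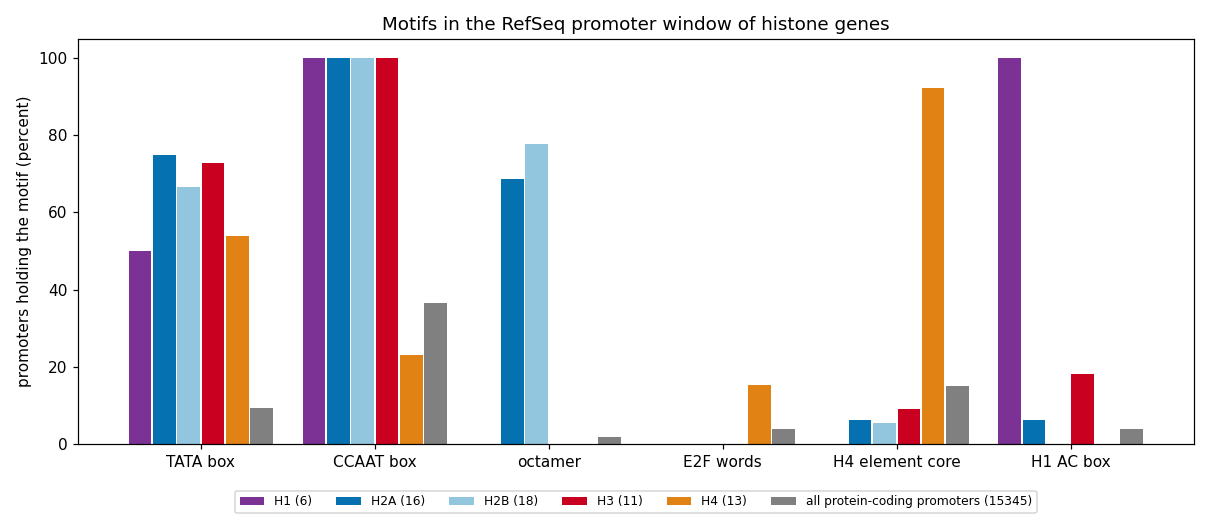
Percent of RefSeq promoter windows that hold each motif on either strand, for each histone type (number of windows in parentheses) and for all protein-coding promoters. The CCAAT box stands at 100% in H1, H2A, H2B and H3 and at 23.1% in H4, where the H4 element core reaches 92.3%.

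H3K4me3 was present at most of the histone promoters and was high for a promoter. Of the 69 genes, 61 (88.4%) had a region, compared with 15085 of 20020 protein-coding genes (75.3%). The median level of the 61 was 129 mean normalized counts, with quartiles of 59.2 and 185 and a range from 5.00 to 374. The median over all promoters with a region was 49.2, and 48 of the 61 histone promoters lay above it. The middle histone promoter was higher than 89.1% of all promoters, and 29 of the 61 lay above 134, the 90th percentile of all promoters. Levels per kb of region were also above the usual value, with a median of 34.2 against 18.99 for all promoters, and 50 of the 61 exceeded the latter. With each shared region counted once, the median of the 36 regions was 124.6 against 45.01 for the 12999 distinct promoter regions of all genes, 26 of the 36 lay above 49.2 and 15 above 134. These are descriptions of pooled means and carry no test.

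**Figure D2:**
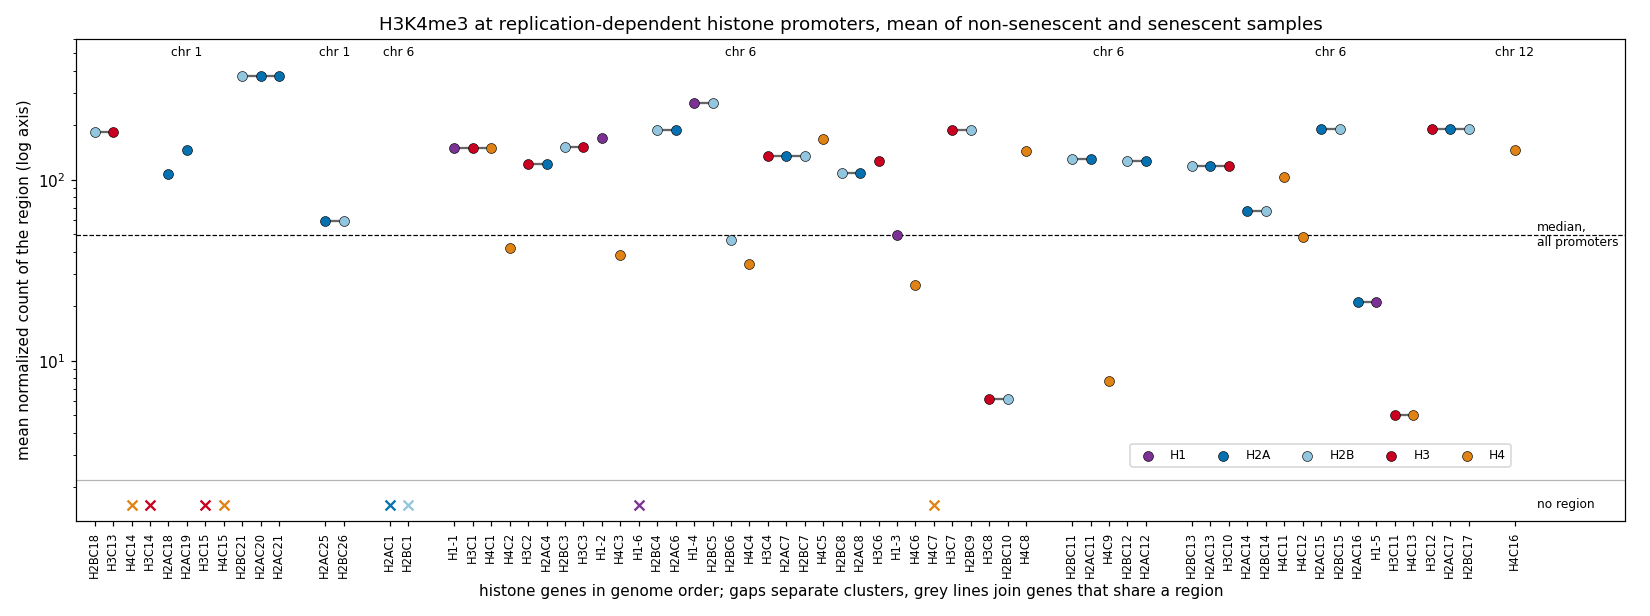
H3K4me3 level (mean normalized count of the promoter region, log axis) of the 69 histone genes in genome order, colored by histone type, with grey lines between genes that share a region and crosses for genes without one. Most points lie above the dashed median of all promoters (49.2), and 8 genes have no region.

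The regions were shared. The 61 values came from 36 regions, and 45 of the 61 genes (73.8%) used a region with another histone gene, whereas 26.2% of all promoters with a region shared theirs with some gene. Many of these genes form divergent pairs, in which an H2A and an H2B gene start back to back. Pairs were counted here when their starts lay less than 1 kb apart. There were 12 H2A-H2B pairs, with 194 to 251 bp between their starts, and 1 H3-H2B pair (H3C7 and H2BC9) 979 bp apart. H2BC3 and H3C3 also start back to back and share a region, at 151, but lie further apart and are not among these 13 pairs. In 12 of the 13 pairs 1 region spanned both starts, at levels from 59.2 (H2AC25 and H2BC26) to 374 (H2BC21 and H2AC20). The exception was H2AC1 and H2BC1, which had no region. A shared region gives both genes the same value, so the signal cannot be assigned to either of them.

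Wider regions had higher levels. Across the 36 regions Spearman's rho between width and level was 0.878, the same to 3 digits as 0.878 across the 12999 distinct promoter regions of all genes, and a wider region also collects more reads. The 16 regions that covered 1 histone start had a median level of 45.1 (5.00 to 169.8) and a median width of 2030 bp. The 14 regions with 2 starts had a median of 139 (59.2 to 267) and 3825 bp, and the 3 regions with 3 starts 192 (136 to 374) and 6625 bp. Per kb, the medians of these groups were 24.1, 36.6 and 28.9, so the order of the last 2 groups turned around. Another 3 regions lay within 2 kb of an assigned start without covering a main start. Of the 36 regions 6 (16.7%) were at least 5 kb wide, against 8.22% of all promoter regions.

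**Figure D3:**
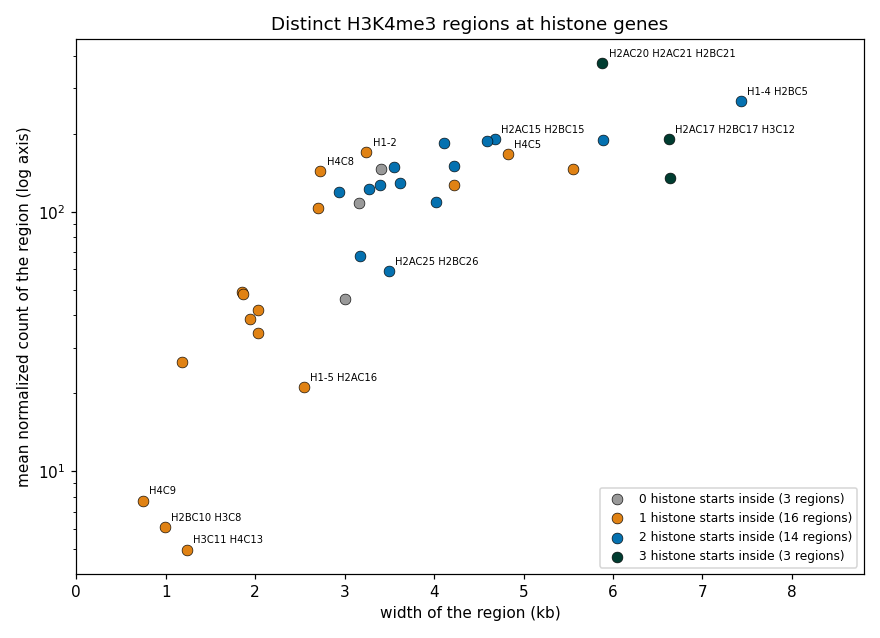
Level (mean normalized count, log axis) against width in kb for the 36 distinct regions at histone genes, colored by the number of histone start sites inside the region. Regions with 1 start range from 5.00 to 169.8, and the 5882 bp region of H2BC21, H2AC20 and H2AC21 is the highest at 374.

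The median of the 5 distinct regions on chromosome 1 was 146.5 and that of the 30 on chromosome 6 was 121. On chromosome 1 the main cluster, from H2BC18 to H2AC21, holds 11 genes. The region of H2BC21, H2AC20 and H2AC21 (chr1:149883596-149889477), which also reaches the start of BOLA1, had the highest level of all histone regions, 374, and the highest per kb, 63.6. This was above 99.8% of all promoters by level and above 99.6% per kb. H2BC18 and H3C13 shared a region (chr1:149810536-149814651) at 185, in which the median stretch of 24 bases occurs 3 times in the genome. H2AC18 was at 108 and H2AC19 at 146.5, from regions that end 578 and 458 bp upstream of their starts. H4C14, H3C14, H3C15 and H4C15 had no region within 2 kb.

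These 6 genes without a region over their start are 3 pairs of near-identical copies in opposite orientation. The promoter windows of H4C14 and H4C15 were identical over 300 bases, those of H3C14 and H3C15 over 296 bases and those of H2AC18 and H2AC19 over 299 bases after alignment. Within 1000 bases on either side of the start, no stretch of 100 bases was unique in the genome for H4C14, H3C14, H3C15 and H4C15, and 12.6% were for H2AC18 and for H2AC19. The nearest unique stretch began 663 bp upstream of H2AC18 and 662 bp upstream of H2AC19. Of the 44 histone genes whose stretches were all unique, 38 had a region over the start. Reads from identical copies cannot be placed on either of them, and how such reads were treated is not given in the sources used here, so the missing regions do not show missing H3K4me3. The part of copy number in these values was not tested.

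The other chromosome 1 cluster holds H2AC25 and H2BC26. They shared a region (chr1:228456037-228459531) at 59.2, which is 16.9 per kb and above 57.4% of all promoters by level. H4C16 on chromosome 12 stood at 146 (chr12:14766755-14772303), with 26.4 per kb. A further region in its window, at 80.6, is the promoter region of H2AJ, a replication-independent H2A gene.

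The chromosome 6 genes fall into 4 groups. The germline pair H2AC1 and H2BC1, the testis H2A and H2B genes, lies apart and had no region. From H1-1 to H4C8 30 of 32 genes had one (median 136), from H2BC11 to H2AC12 5 of 5 (median 127) and from H2BC13 to H2BC17 16 of 16 (median 111). With shared regions counted once, the medians of these 3 groups were 127, 127 and 85.3. Little of the H3K4me3 signal in these groups lay away from the histone genes. Regions within 2 kb of a histone start covered 26.7%, 32.2% and 30.1% of the last 3 spans and held 98.1%, 96.9% and 100% of the summed level there. In the first of these spans the 8 other regions had a median of 4.20 and reached at most 15.6.

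Among the linker histone genes, H1-4 shared a region of 7431 bp with H2BC5 (chr6:26155360-26162790) at 267, the second highest of all. H1-2 had its own region (chr6:26054242-26057485) at 169.8, which is 52.3 per kb and above 98.5% of all promoters per kb. H1-3 was at 49.3 from its own region. H1-1 took 149 from the region of H3C1 and H4C1, whose near edge is 1474 bp upstream of it, while the region over its own start was at 27.8. H1-5 took 21.1 from the region over the start of H2AC16. That region reaches into the H1-5 gene and ends 306 bp downstream of the H1-5 start, which no region covered. H1-6, the testis linker histone, had none. Thus 2 of the 5 H1 values came from regions that covered the start of a neighbour and not their own. When only regions over the own start were counted, 4 H1 genes had one, with a median of 109.5. The median of the 5 H1 values, 149, rests on the region taken by H1-1 and was 49.3 with a window of 1 kb.

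Among H2A genes 16 of 17 had a region (median 128, range 21.1 to 374), and among H2B genes 17 of 18 (median 136, range 6.12 to 374). The lowest H2A gene was H2AC16 at 21.1 and the lowest H2B gene H2BC10 at 6.12. H2BC6 was at 46.2 from a region at a distant alternative start, and the region over its main start was at 20.3. Of the pairs, H2AC15 with H2BC15 (191), H2AC6 with H2BC4 (189) and H2AC17 with H2BC17 and H3C12 (192) were highest on chromosome 6. H2AC14 with H2BC14 (67.4) was lowest of the pairs there. The pairs H2AC11 with H2BC11 (129), H2AC12 with H2BC12 (127) and H2AC13 with H2BC13 (119.7) differed by little, and no error is known by which to separate them.

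Of 13 H3 genes 11 had a region, with a median of 136 and a range from 5.00 (H3C11) to 192 (H3C12). H3 genes reached high levels mostly in company, and H3C6 (127) was the strong one with a region of its own. H3C10 took 119.7 from the neighbouring H2AC13 region, while its own was at 27.3. H3C8 took 6.12 from the region of H2BC10, and the region over its own start was at 1.98. H3C8, H2BC10, H3C11 and H4C13 were the lowest genes of the set with H4C9 (7.72). At most 11.1% of all promoters were lower than any of these 5.

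With the window of 2 kb, the H4 genes had the lowest median of the histone types. Their 12 values had a median of 45.1, against 128 to 149 for the other types, and 5 of the 12 lay above the median of all promoters, against 4 of 5 H1, 15 of 16 H2A, 15 of 17 H2B and 9 of 11 H3 genes. Per kb the H4 median was 24.1, against 34.9 to 35.9. Of the 16 regions that covered 1 histone start, the 10 at H4 genes had a median of 45.1 (24.1 per kb). The 6 at other genes had a median of 35.2 (17.5 per kb), so H4 was not the lower among these regions. These 6 were spread widely, with H1-2 at 169.8, H3C6 at 127, H1-3 at 49.3, H2AC16 at 21.1, H2BC10 at 6.12 and H3C11 at 5.00. The H4 genes split by level, with H4C5 at 167, H4C1 at 149, H4C16 at 146, H4C8 at 143 and H4C11 at 103. The next was H4C12 at 48.2, followed by H4C2 (41.9), H4C3 (38.6), H4C4 (34.1), H4C6 (26.3), H4C9 (7.72) and H4C13 (5.00), the last from the region of H3C11 beside it. H4C5 had the widest H4 region of chromosome 6 (4827 bp), and H4C8 the highest value per kb of all H4 genes (52.5), and neither region covered another histone start. H4C7, which encodes a divergent H4 protein, had no region, and all stretches of 100 bases within 1000 bases of its start were unique. Of the H4 windows printed above, GGTCCG was present in H4C8 at 143 and also in H4C9 at 7.72. This order did not hold with a window of 5 kb, where the H4 median was 143 and that of H1, 99.4, was the lowest. The H4 median was 75.6 when regions under 10 mean normalized counts were left out.

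**Figure D4:**
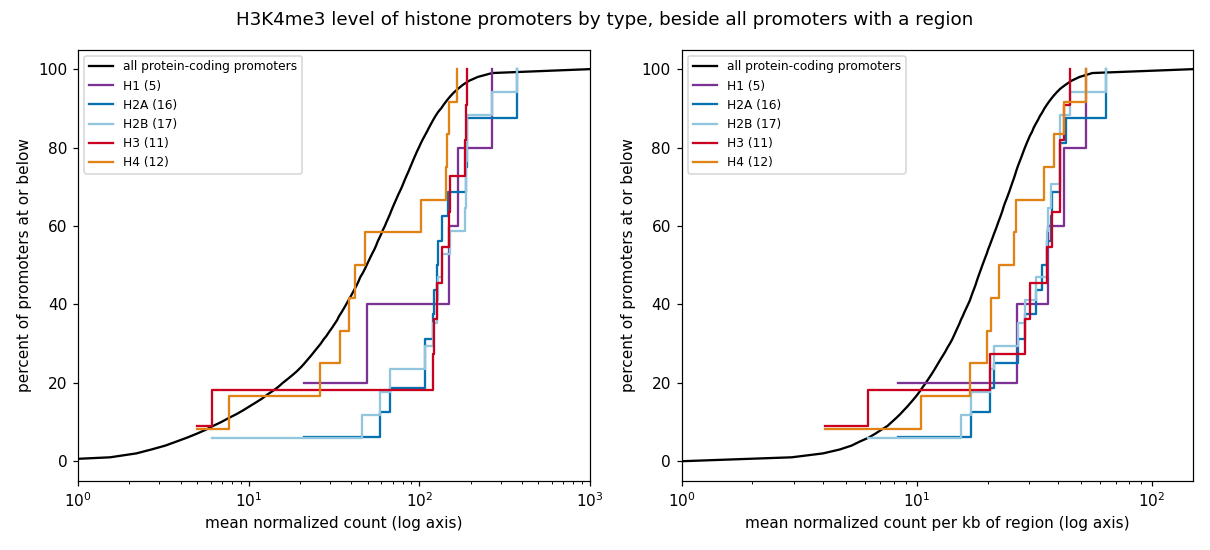
Cumulative percent of promoters at or below a level (left, mean normalized count; right, per kb of region; log axes) for each histone type with its number of genes and for all protein-coding promoters with a region (black). H1, H2A, H2B and H3 run mostly to the right of the black curve in both panels, and H4 (median 45.1) crosses it near the middle of the left panel.

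The regions lay over the genes. A region covered the main start of 57 of the 69 genes, and for 53 of them this was the strongest one in the window, which then spanned the whole canonical transcript in all 53. Among 16 genes whose region covered no other histone start, the median edges of the region lay at -734.5 and 1342.5 bp from the start in the direction of transcription, and the upstream arm was the longer in 3 of them. The 36 regions had a median GC content of 46.1% (39.2 to 53.8%), against 51.4% for all promoter regions. Their median CpG ratio, the CpG count over that expected from the C and G content, was the higher, at 0.670 against 0.587.

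**Figure D5:**
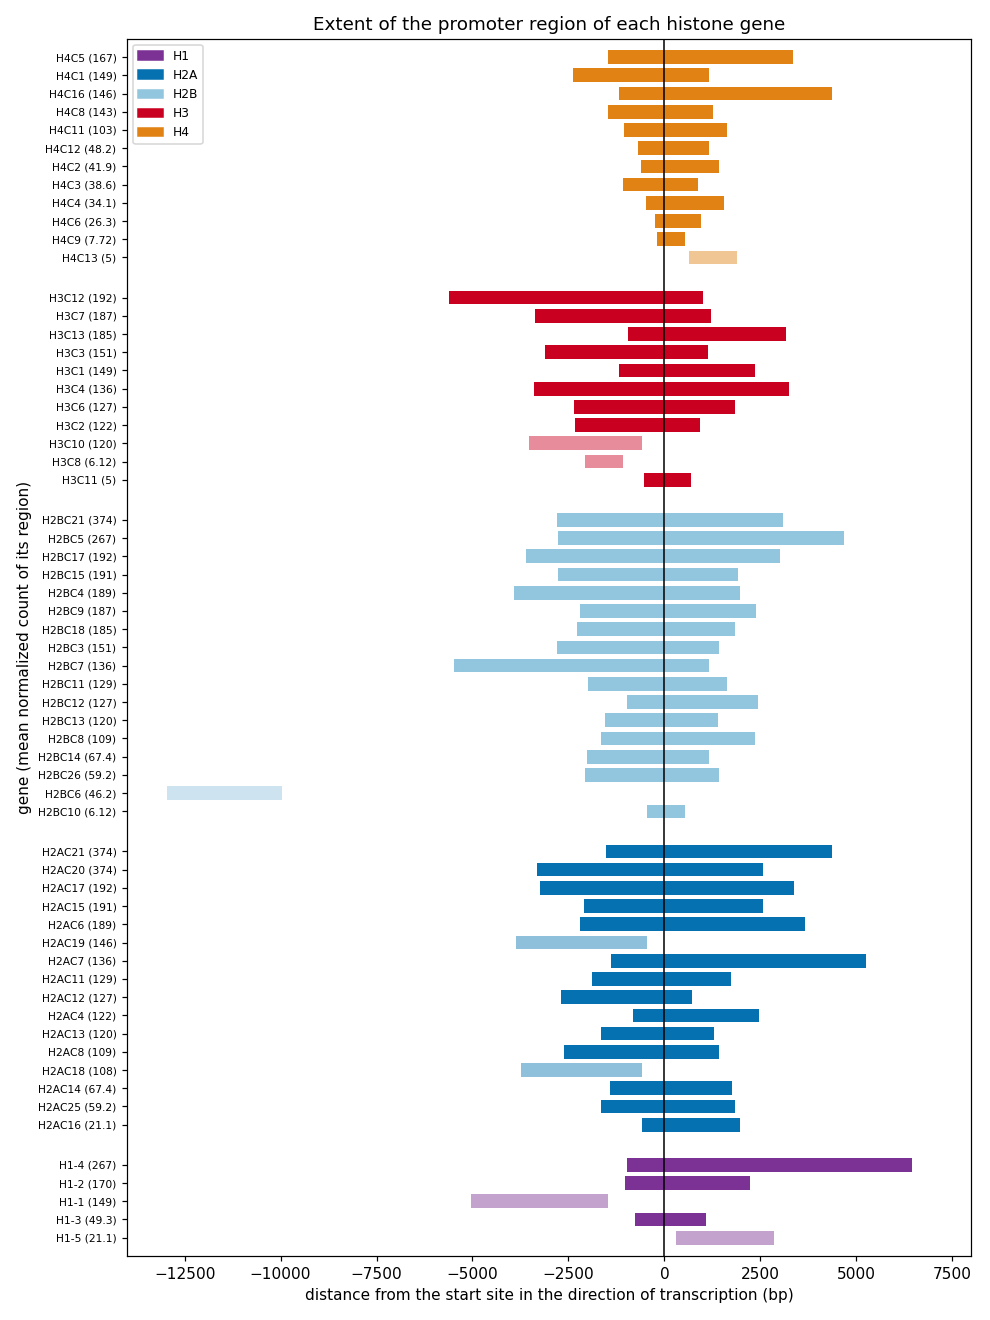
Extent of the promoter region of each of the 61 histone genes around its start site, in bp along the direction of transcription, grouped by type and ordered by level (in parentheses, mean normalized count). Pale bars are the 8 genes whose strongest region does not cover the start, such as H1-1, H3C10 and H2BC6.

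Other histone genes and factors of the pathway had lower medians. Of 12 replication-independent histone genes 11 had a region, with a median of 69.7 from H1-10 (29.6) to H2AZ1 (164), and H3-5 had none. All 11 factors of the histone locus body and of histone mRNA 3′ end formation had one, with a median of 70.1 from SLBP (31.1), the stem-loop binding protein, to NPAT (178). The 7 histone chaperones had a median of 57.2, with CHAF1B (7.01), a subunit of the replication-coupled chaperone CAF-1, lowest and HIRA (112), a chaperone of H3.3, highest. Per kb the 3 medians were 22.7, 21.8 and 19.9, against 34.2 for the replication-dependent genes.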

How the data were processed

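H3K4me3 MINT-ChIP data of 4 non-senescent and 4 senescent EndoC-βH3 samples were used, and the 16 samples of H3K27me3 and H3K9me3 were not analysed here. Paired-end reads were aligned by the authors with Bowtie2 (hg38), handled with samtools, and searched for H3K4me3 peaks with HOMER. The deposited signal of a region is, per the file header in the form DESeq2 writes, a mean normalized count over the samples. How peaks were merged, reads counted and duplicates or multiply mapped reads treated is not given in the sources used here. The deposited table also holds the authors' own comparison of the states (log2 fold change, its standard error, test statistic and p-values), which was not used. Values per sample were not given, so depth is unknown, no test was run and no sample could be left out.

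Region starts, counted from 0 in the table, were raised by 1. Start sites were those of all transcripts of protein-coding genes in GENCODE release 44. The window of a gene reached 2 kb to each side of every start, and the region in it with the largest signal was taken. The main start is that of the canonical transcript. Genes on a chromosome were split into clusters at gaps over 200000 bp between starts. Copy number was counted on both strands of 194 hg38 sequences, alternate loci left out, for 60 stretches of 24 bases per region and for all stretches of 24 and 100 bases within 1000 bases of each main start. Motifs were searched in the RefSeq windows of 300 bases, taking for each gene the window nearest to its main start. The copy counting and the assignment of regions to starts were tested on simulated data, and the other steps were not.

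The members and lists were chosen with earlier results of these data known. Genes named in the text are those without a region, the 5 highest and 5 lowest, the extremes of each histone type, the genes outside chromosome 6, those sharing a region with at least 2 others, the germline genes and, from each comparison list, the highest, the lowest and those without a region. Other genes named, such as H1-1, H1-3, H2BC6, the remaining H4 genes and further divergent pairs, were added after their values were seen. Alternatives were other windows (1 and 5 kb), canonical starts, the nearest region, summed regions, levels per kb, a minimum of 10, multi-copy regions left out and shared regions counted once. The software was numba 0.67.0, matplotlib 3.10.9, scipy 1.17.1, pandas 2.3.3 and numpy 2.4.6 in Python 3.11.15.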

Additional observations from a re-analysis of the deposited data

How the results depend on the processing

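Under 10 alternatives, 90 of 103 recomputed counts, medians and ranks stayed within 1.5 times the value reported, a limit used because no spread between samples is known. The rank among all promoters is a percentile that could not rise by that much, so its staying within the limit says little. The median H1 level was 49.3 with a 1 kb window or the nearest region and 99.4 with a 5 kb window. The median H4 level rose from 45.1 to 143 with a 5 kb window, in which H4C2, H4C4, H4C6, H4C9 and H4C12 took stronger neighbouring regions, and to 75.6 with a minimum of 10 mean normalized counts, which removes H4C9 and H4C13. Per kb of region, a change of unit, the medians were 34.2 for all histone genes, 32.1 on chromosome 6, 44.8 on chromosome 1, 35.9 for H1, 34.9 for H2A, 35.7 for H2B and for H3 and 24.1 for H4. With a 5 kb window H1-6, H3C14, H3C15 and H4C7 gained a region. When only a region over the main start counted, a choice made after seeing the data, 57 genes kept one, and H1-1, H2BC6, H3C8 and H3C10 fell by more than 1.5 times. No paired analysis was possible because the signal is pooled over the samples and carries no replicate number.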
